A study of Homo sapiens with 7 samples.

Results

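Immediate early genes are transcribed within a short time of a growth factor or stress signal, without new protein being made first. Their promoters are held ready by factors such as SRF, and ERK signalling switches them on by phosphorylating SRF's partner proteins. Many encode transcription factors, and others encode regulators of cell survival or of mRNA decay. The transcripts are short-lived, so that their level follows recent signalling. Described here are 10 such genes outside the AP-1 family, chosen by symbol from the 57773 rows of the deposited gene table: the zinc-finger factors EGR1, EGR2 and EGR3, the serum response factor SRF, the orphan nuclear receptor NR4A1, the immediate early response genes IER2, IER3 and IER5, the survival regulator PHLDA1 and the mRNA decay factor ZFP36. All 10 symbols were found in the table, once each.

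The study asks how APE1, a base excision repair enzyme that also has a redox role towards transcription factors, and its binding to G-quadruplex DNA bear on the spread of triple-negative breast cancer. RNA was sequenced from MDA-MB-231, an established human breast cancer line, in 2 libraries labelled KD and 3 labelled parent. The labels do not spell out KD, name no clone and no doxycycline state for a library, and their treatment text speaks of APE1-knockout cells carrying wild-type or mutant APE1 on a doxycycline-inducible lentiviral vector, so what the KD cells carry beyond their name is not known from them. A chromatin immunoprecipitation against APE1 and its input were not analysed here. The libraries held 14601078 to 18049386 counts, and those of one group differed by more than sampling noise, with a chi-square per degree of freedom of at least 3.80. The labels do not say whether replicates were separate cultures, so the p-values below rest on a spread among libraries that may be purely technical. APEX1, the gene for APE1, had 640 and 753 counts in KD and 1936, 1936 and 2413 in parent. The fit put KD at 35.2% of the parent level (edgeR adjusted p = 5.87e-05). APEX1 RNA was thus lower in both KD libraries, which does not show what the KD cells carry. Of the line's markers VIM had a mean of 2149 CPM in KD and 2261 CPM in parent, ESR1 had 0 counts in every library and PGR at most 2, and the leukocyte genes PTPRC and CD3E and the fibroblast gene DCN had 0 counts throughout. Other listed markers of those cell types were detected: CD14 had 72 to 154 counts and was lower in KD (edgeR adjusted p = 0.0391), COL1A1 had 273 to 399, COL1A2 5 to 13 and LUM 0 to 7, and their part in the results was not tested. SPARC, listed among the line's high markers, was at 8 to 14 counts in parent and 62 and 84 in KD. It was 7.15-fold higher in KD (edgeR adjusted p = 0.00134). Of other listed markers, KRT18 averaged 334 CPM for parent, ERBB2 133, GATA3 34.1, EPCAM 12.3 and CDH1 3.51. FOXA1 had 0 counts. ERBB2 was 1.21-fold and CDH1 2.19-fold higher in KD (edgeR adjusted p = 0.0426 and 0.00587), whereas CD44 was 1.27-fold lower (edgeR adjusted p = 0.00951). LOX ran from 19.1 to 86.0 CPM over the libraries and, like KRT18, GATA3 and EPCAM, did not pass the test. Across the 16198 genes tested, 21.5% were called at an adjusted p of 0.05 (edgeR quasi-likelihood test), 12.4% lower and 9.15% higher in KD.

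Of the 10 genes, 8 had enough counts to be tested. EGR1, PHLDA1, NR4A1 and IER3 fell in KD, IER2, IER5, ZFP36 and SRF did not pass the test, and none rose. The 4 that fell are 50% of the 8 tested, beside 12.4% of all genes tested that were called lower. The 10 genes and the 6 lists below were chosen with earlier results of these data known. Their shares are therefore no independent evidence. The 8 had a median log2 fold change of -0.26, against 0.00085 over all genes tested. In 5 of the 8 both KD libraries lay below all 3 parent libraries, which was the case for 26.1% of all genes tested, and in the other 3 the groups overlapped. In none did both KD libraries lie above all parent libraries, the case for 25.3% of all genes tested, and 51.4% of those genes had no overlap in either direction. The count of 4 was 2 without KD replicate 1 (EGR1 and PHLDA1) and 2 without KD replicate 2 (PHLDA1 and IER3). Levels below are CPM on TMM-scaled libraries, given as mean ± SD over the 2 KD and the 3 parent libraries, and each log2 fold change sets KD against parent. CPM is not scaled by gene length, so levels are compared between libraries and not between genes.

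**Figure D1:**
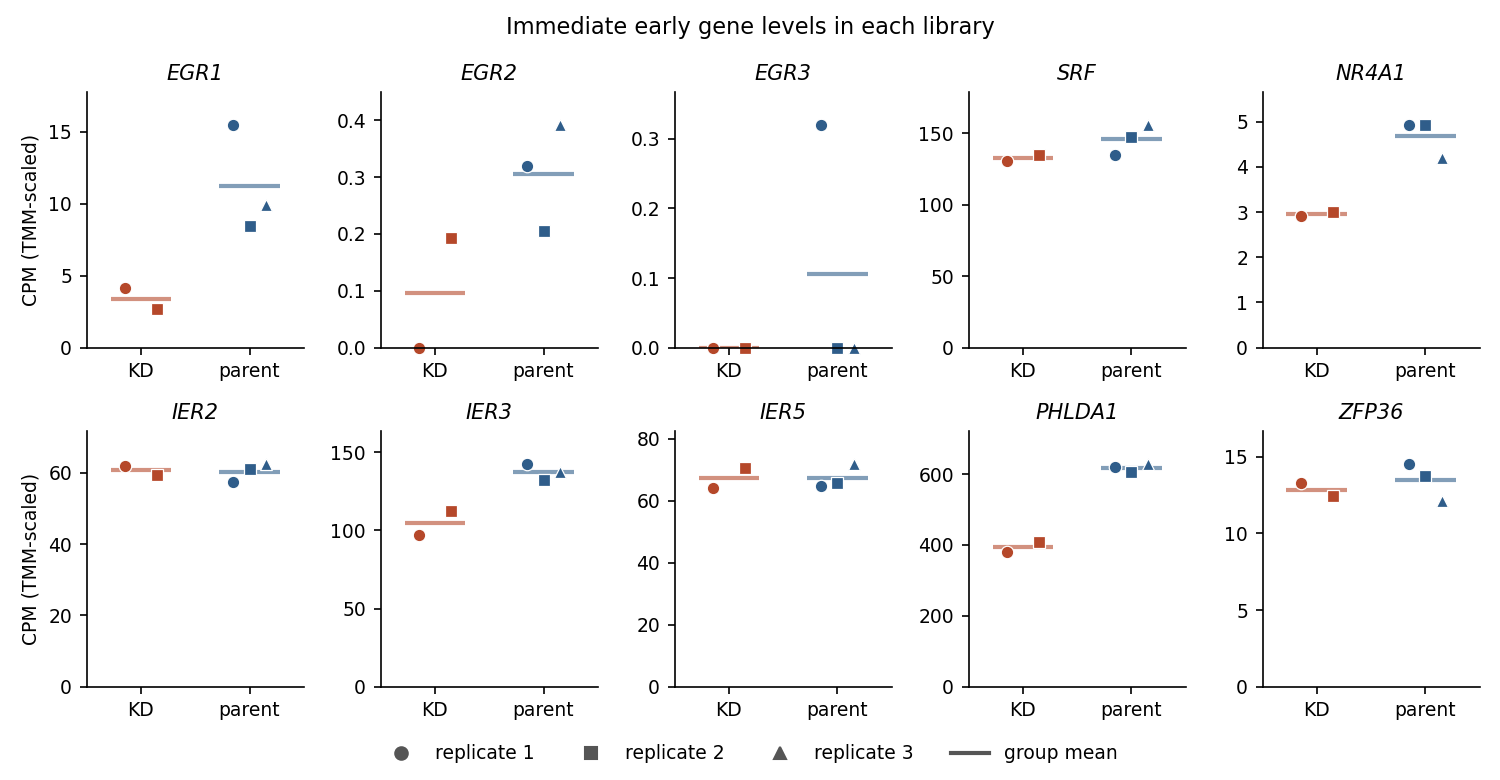
Level of each of the 10 genes in every library, in CPM on TMM-scaled libraries, on axes that start at 0 and differ between panels, with a point per library and a bar at each group mean. EGR1, NR4A1, IER3 and PHLDA1 sit lower in both KD libraries than in all 3 parent libraries, while the groups overlap in IER2, IER5 and ZFP36.

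EGR1 had the lowest fold change of the 8. This zinc-finger factor binds GC-rich sites and is among the first genes switched on by serum and ERK signalling. Its counts were 61 and 42 in KD, and 242, 124 and 177 in parent, in the order of the replicate numbers, or 4.13 and 2.69 CPM against 15.5, 8.47 and 9.89 CPM. The highest KD library was thus at less than the lowest parent library, although the parent libraries themselves spread 1.83-fold. EGR1 fell 3.31-fold, from 11.3 ± 3.69 to 3.41 ± 1.02 CPM (SD), with a log2 fold change of -1.73 ± 0.318 (SE, edgeR adjusted p = 0.0102). The 95% interval of the difference runs from -2.48 to -0.97, that is from 17.9% to 51.0% of the parent level. Of the genes tested, 3.03% had a lower fold change than EGR1. The coefficient of variation was 29.8% in KD and 32.8% in parent, the widest of the 8 genes in both groups. Without KD replicate 2, the lower of the KD libraries, the log2 fold change was -1.45 and the call was lost (edgeR adjusted p = 0.0653, where 11 alternatives spanned 1.57e-05 to 0.0653). In the authors' deposited table EGR1 stood at a log2 fold change of -1.74 with an adjusted p of 5.27e-05.

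EGR2 and EGR3 were too low to test. EGR2, a factor of the same family known for its part in myelination, had 0 and 3 counts in KD and 5, 3 and 7 in parent. EGR3, a further member of the family, had 0 counts in both KD libraries and in parent replicates 2 and 3, with 5 counts in parent replicate 1. In KD a count of 0 allows up to 3 counts, or 0.203 CPM in replicate 1 and 0.192 CPM in replicate 2. This is counting error alone, so no fold is given, and a fall in either gene was not detectable at this depth. The authors' deposited table gives EGR2 an adjusted p of 0.721 and EGR3 none. NAB1 and NAB2, the corepressors that bind EGR proteins, did not pass the test. NAB1 averaged 66.5 ± 1.38 CPM in KD against 75.3 ± 6.43 CPM for parent (edgeR adjusted p = 0.181, and 0.0356 without parent replicate 1 within 0.0356 to 0.437), and NAB2 at 14.6 ± 1.78 and 14.3 ± 1.14 CPM (edgeR adjusted p = 0.884). The paralogue EGR4 had 0 counts in all 5 libraries.

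The promoter of EGR1 is shown because it carries the textbook serum response element layout. The sequence is the 250 bases before the RefSeq start at chr5:138465229-138465478 (GRCh38.p14, plus strand), and capitals mark CArG boxes, the core on which SRF sits (CC, then 6 bases of A or T, then GG, which reads alike on both strands).
EGR1: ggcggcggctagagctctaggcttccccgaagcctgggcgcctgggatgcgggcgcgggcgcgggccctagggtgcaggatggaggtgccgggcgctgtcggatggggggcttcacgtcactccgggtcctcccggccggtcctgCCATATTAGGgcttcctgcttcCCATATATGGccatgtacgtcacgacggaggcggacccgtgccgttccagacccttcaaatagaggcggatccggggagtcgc
The boxes start 105 and 83 bases before the start site, and a CArG box was found in 1.29% of the 35116 windows of the same length (300 bases, 50 of them past the start) in the table. Upstream of them, from 215 to 178 bases before the start, the same strand holds a G-quadruplex pattern (4 or more runs of at least 3 G, with loops of 1 to 7 bases), printed here with the G runs in capitals since the study concerns this structure.
EGR1 G-quadruplex pattern: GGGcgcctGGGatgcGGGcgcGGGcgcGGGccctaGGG
EGR2 has 3 RefSeq starts in the table, of which the most downstream has a CArG box 71 bases before the start, at chr10:62816367-62816616 (GRCh38.p14, minus strand, printed 5′ to 3′ along the gene).
EGR2: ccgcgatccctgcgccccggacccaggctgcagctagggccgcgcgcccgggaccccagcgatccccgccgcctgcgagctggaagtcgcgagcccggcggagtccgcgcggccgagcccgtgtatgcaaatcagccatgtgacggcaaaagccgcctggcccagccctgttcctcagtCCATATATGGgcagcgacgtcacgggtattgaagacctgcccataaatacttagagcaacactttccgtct
The box of EGR2 has the same 10 letters as the second box of EGR1. These are matches of letters, and no binding was measured here.

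SRF, the factor that binds CArG boxes, did not pass the test. It was at 130.7 and 134.5 CPM in KD and at 135.2, 147.4 and 155.6 CPM in parent. The KD libraries lay below the parent libraries, but KD replicate 2 by less than the distance between any 2 parent libraries. The log2 fold change was -0.14 ± 0.0676 (SE, edgeR adjusted p = 0.192), with an interval of 81.2% to 101% of the parent level, so that a fall as large as that of EGR1 lies outside it. The adjusted p ran from 0.0513 to 0.491 over the alternatives. SRF is itself described as a gene under SRF control, and its promoter is printed for that reason: the 250 bases before its outermost RefSeq start, at chr6:43171019-43171268 (GRCh38.p14, plus strand), with CArG boxes in capitals.
SRF: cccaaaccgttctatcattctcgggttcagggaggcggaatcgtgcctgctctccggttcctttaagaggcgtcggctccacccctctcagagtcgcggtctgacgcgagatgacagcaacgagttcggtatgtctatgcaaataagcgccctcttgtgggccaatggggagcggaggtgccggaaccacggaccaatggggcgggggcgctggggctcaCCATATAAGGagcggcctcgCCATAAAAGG
The boxes start 30 and 10 bases before the start site, and an EGR site (GCGTGGGCG or GCGGGGGCG, found in 5.77% of all windows) starts 49 bases before it. EGR1 and SRF each hold a pair of CArG boxes in this window, and whether the boxes bear on their levels was not tested.

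The partners of SRF moved in both directions. Of 8 cofactors tested, 1 rose and 3 fell (50% called, beside 21.5% of all genes tested), and the median log2 fold change was 0.05. ELK3 and ELK4, ternary complex factors that ERK phosphorylates on serum response elements, fell 1.30-fold each. ELK3 went from 124 ± 3.70 to 95.2 ± 2.30 CPM (edgeR adjusted p = 0.00321), and ELK4 from 88.8 ± 7.81 to 68.2 ± 2.94 CPM (edgeR adjusted p = 0.0219). ELK1, also of this kind, averaged 111 ± 6.63 CPM in KD against 103 ± 6.46 CPM for parent (edgeR adjusted p = 0.308). MKL1, the actin-sensing coactivator, rose 1.34-fold, from 35.4 ± 2.06 to 47.4 ± 0.953 CPM (edgeR adjusted p = 0.00717), and its paralogue MKL2 was at 49.9 ± 3.57 and 42.0 ± 3.39 CPM (edgeR adjusted p = 0.0978). NFATC4, a calcium-regulated factor, had 0 counts in both KD libraries and 33 to 38 in parent, at least 22.7-fold lower against 3 counts over the group. The calls on ELK4 were lost without KD replicate 1 (edgeR adjusted p = 0.127), KD replicate 2 (0.0637) or parent replicate 2 (0.0796), within 0.00194 to 0.127, and that on MKL1 without KD replicate 2 (0.0549, within 0.00133 to 0.0549). Without KD replicate 2 the list held 2 calls.

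Of 22 cytoskeletal genes described as SRF targets, 5 rose and 5 fell (45.5% called, beside 21.5% of all genes tested), and the median log2 fold change was 0.08. CNN1 (calponin) rose 3.68-fold, from 3.22 ± 0.248 to 11.9 ± 0.181 CPM (edgeR adjusted p = 0.000202), and TAGLN (transgelin), another smooth-muscle actin-binding protein, rose 1.63-fold to 43.1 ± 2.89 CPM (edgeR adjusted p = 0.000663). The LIM protein FHL1 fell 4.94-fold, from 21.4 ± 3.83 to 4.31 ± 0.0653 CPM (edgeR adjusted p = 0.000316), and the tropomyosin TPM4 fell 1.31-fold (edgeR adjusted p = 0.00179). ACTB, the beta-actin gene, was at 6960 ± 94.4 in KD and 6956 ± 81.2 CPM in parent. The list's 10 calls became 4 without KD replicate 1, 6 without KD replicate 2, 5 without parent replicate 2 and 6 without parent replicate 3. The calls named here were kept under all alternatives.

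NR4A1 (NUR77), a nuclear receptor that needs no known hormone and is induced by growth factors, was lower in KD in the edgeR test. It had 43 and 47 counts in KD and 77, 72 and 75 in parent, or 2.91 and 3.01 CPM against 4.92, 4.92 and 4.19 CPM. The groups did not overlap, at low counts in all 5 libraries. NR4A1 fell 1.57-fold, from 4.68 ± 0.420 to 2.96 ± 0.0712 CPM, with a log2 fold change of -0.65 ± 0.168 (SE, edgeR adjusted p = 0.0340). The interval reaches from 48.2% to 83.7% of the parent level. Of 11 alternatives, 5 kept this call. Among those that lost it were the DESeq2 test (adjusted p = 0.134) and the fits that left out KD replicate 1 (edgeR adjusted p = 0.142), KD replicate 2 (0.119), parent replicate 1 (0.0636) and parent replicate 2 (0.104), and the authors' deposited table gives an adjusted p of 0.244. The direction was lower throughout, with log2 fold changes of -0.73 to -0.62. NR4A2, its paralogue, had 12 and 0 counts in KD and 43, 27 and 28 in parent, with a wide interval of -4.30 to -0.38 for the log2 fold change and no call (edgeR adjusted p = 0.0915). Without KD replicate 1, which leaves KD at 0 counts, NR4A2 passed the test (edgeR adjusted p = 0.0106, where the alternatives spanned 0.0106 to 0.164). NR4A3 had 4 to 8 counts in every library and was not tested. RXRA, a dimer partner of NR4A1, rose 1.18-fold to 134 ± 4.45 CPM (edgeR adjusted p = 0.0219). The call on RXRA was lost with no filter on low counts (edgeR adjusted p = 0.0569) and without KD replicate 1 (0.156), KD replicate 2 (0.0695) or parent replicate 2 (0.0859), where the alternatives spanned 0.00911 to 0.156. RXRB, its paralogue, averaged 19.6 ± 0.497 CPM in KD against 18.9 ± 1.98 CPM for parent (edgeR adjusted p = 0.768).

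IER2 and IER5 belong to one protein family, whereas IER3 shares their name alone. IER3 (IEX-1), which modulates cell survival and ERK signalling, was at 97.2 and 113 CPM in KD and at 142, 132 and 137 CPM in parent. IER3 fell 1.31-fold, with a log2 fold change of -0.39 ± 0.0736 (SE, edgeR adjusted p = 0.0116) and an interval of 67.7% to 86.3% of the parent level. Its call was lost without KD replicate 1, the lower KD library (log2 fold change -0.29, edgeR adjusted p = 0.0695, within 0.000112 to 0.0695). IER2, a nuclear protein tied to cell motility, was at 62.0 and 59.4 CPM in KD and 57.5, 61.1 and 62.4 CPM in parent. The ranges of IER2 overlap, and the fit gave 101% of the parent level with an interval of 90.1% to 112% (edgeR adjusted p = 0.946). IER5, which acts on the heat shock factor HSF1, was at 64.0 and 70.5 CPM in KD and 64.8, 65.7 and 71.7 CPM in parent, 99.7% of the parent level with an interval of 87.9% to 113% (edgeR adjusted p = 0.978). The intervals of IER2 and IER5 lie above that of IER3, and none of the 3 reaches the interval of EGR1. The fitted log2 fold change of IER2 ran from -0.03 to 0.04 over the alternatives and that of IER5 from -0.08 to 0.06, so neither has a direction. IER5L, the paralogue of IER5, rose 1.39-fold, from 22.1 ± 0.404 to 30.6 ± 1.46 CPM (edgeR adjusted p = 0.00348).

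PHLDA1, a pleckstrin homology-like protein tied to cell survival and death, had the smallest p of the 8 genes. It was at 381 and 409 CPM in KD and at 619, 607 and 627 CPM in parent, with no overlap and little spread in either group. PHLDA1 fell 1.56-fold, with a log2 fold change of -0.64 ± 0.0512 (SE, edgeR adjusted p = 0.000345) and an interval of 58.8% to 69.6% of the parent level. It passed the threshold under all 11 alternatives (largest adjusted p 0.00347). PHLDA2 and PHLDA3 moved in opposite directions. PHLDA2, an imprinted regulator of placental growth, was at 25.9 and 32.3 CPM in KD and 60.9, 68.9 and 70.4 CPM in parent, and fell 2.29-fold (edgeR adjusted p = 0.000778). PHLDA3, a p53 target that blocks AKT at the membrane, was at 24.0 and 25.6 CPM in KD and 16.4, 15.8 and 15.9 CPM in parent, and rose 1.55-fold (edgeR adjusted p = 0.00186). Both kept their calls under all alternatives.

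The promoter of PHLDA1, the gene with the smallest p, holds no CArG box in its window and a G-quadruplex pattern from 201 to 175 bases before the start, which the capitals mark. The sequence is the 250 bases before the RefSeq start at chr12:76031777-76032026 (GRCh38.p14, minus strand, printed 5′ to 3′ along the gene).
PHLDA1: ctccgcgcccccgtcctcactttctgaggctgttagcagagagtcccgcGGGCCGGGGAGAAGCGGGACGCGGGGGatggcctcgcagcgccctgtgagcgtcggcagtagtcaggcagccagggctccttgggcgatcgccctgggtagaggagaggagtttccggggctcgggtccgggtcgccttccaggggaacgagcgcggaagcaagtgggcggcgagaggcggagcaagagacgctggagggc
A G-quadruplex pattern was found on either strand in 25.0% of the 35116 windows, and in 5 of the 12 windows of these genes (41.7%), whose GC content was 53.3% to 77.3% against a median of 58.7% over all windows. Among them ZFP36 holds 2 on the opposite strand. Whether the pattern bears on the levels of these genes was not tested.

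ZFP36 (tristetraprolin) binds AU-rich elements of short-lived mRNAs and brings about their decay. It was at 13.3 and 12.4 CPM in KD and at 14.5, 13.7 and 12.1 CPM in parent, with overlapping ranges. The fit gave 95.6% of the parent level with an interval of 79.6% to 115% (edgeR adjusted p = 0.730). ZFP36L2, a paralogue with the same kind of RNA-binding domain, was at 88.3 and 89.0 CPM in KD and 56.5, 58.5 and 64.6 CPM in parent, and rose 1.48-fold (edgeR adjusted p = 0.00254). ZFP36L1 averaged 243 ± 13.6 CPM in KD against 203 ± 22.0 CPM for parent (edgeR adjusted p = 0.0884, and 0.0134 without parent replicate 1 within 0.0134 to 0.356). Of the 10 tested paralogues and partners of these genes, 4 rose (PHLDA3, ZFP36L2, IER5L and RXRA) and 1 fell (PHLDA2), beside 9.15% higher and 12.4% lower over all genes tested, and their median log2 fold change was 0.15.

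**Figure D2:**
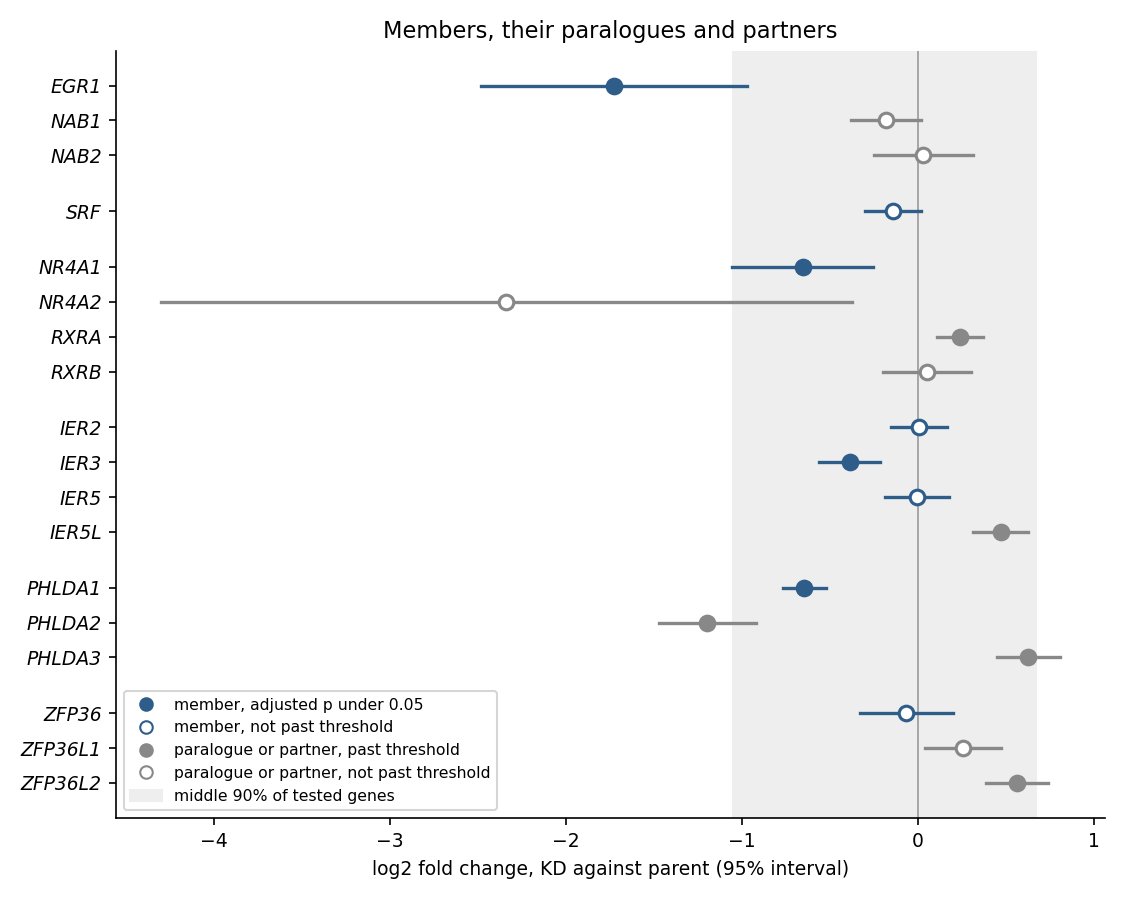
Log2 fold change of KD against parent for the 8 tested genes (blue) and their tested paralogues and partners (grey), with 95% intervals, filled points for an edgeR adjusted p under 0.05 and a band between the 5% and 95% quantiles of all tested genes. EGR1, PHLDA2 and NR4A2 (not past the test) lie below the band, PHLDA1 and PHLDA3 lie within it on opposite sides of 0, and the intervals of IER2, IER5, ZFP36 and SRF include 0.

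Of 19 tested transcripts described as ZFP36 targets, 15 fell and 0 rose, with a median log2 fold change of -0.72, beside 12.4% lower and a median of 0.00085 over all genes. BIRC3, an inhibitor of cell death, was at 29.3 and 27.9 CPM in KD and 161, 155 and 145 CPM in parent. The protease PLAU was at 153 and 139 CPM in KD and 456, 434 and 409 CPM in parent. The cytokine IL1B fell 3.64-fold and the chemokine CXCL1 4.09-fold (edgeR adjusted p = 5.01e-05 and 6.6e-05). IL6 and CXCL2, both of this list, were at 227 ± 19.4 and 13.3 ± 0.935 CPM in KD and at 214 ± 12.6 and 13.1 ± 0.165 CPM in parent and did not pass the test (edgeR adjusted p = 0.438 and 0.885). MYC, PTGS2 and MCL1 stand in this list and in the list of early response genes. Several were known to be lower when the list was written, so the count is no independent evidence, and mRNA decay was not measured.

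Among 39 other growth-factor and stress responsive early genes, 19 fell and 3 rose, and the median log2 fold change was -0.55. IER5L, one of the 3, is also counted among the paralogues that rose. Of all genes tested, 12.4% were called lower and 9.15% higher. The matricellular genes CTGF and CYR61 fell 4.73-fold and 2.74-fold, and the EGFR ligand HBEGF fell 3.07-fold, from 88.0 ± 4.05 to 28.7 ± 0.610 CPM (edgeR adjusted p = 4.39e-05). SGK1, a serum-induced kinase, rose 2.06-fold, from 18.3 ± 1.11 to 37.6 ± 1.19 CPM (edgeR adjusted p = 0.000234). FOS, the best known of these genes, had 6 and 8 counts in KD and 12, 12 and 19 in parent (edgeR adjusted p = 0.120). The list was likewise written with falls of several members known.

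Of 22 tested transcripts of the ERK cascade, 3 rose and 3 fell, and the median log2 fold change was -0.01. The share called, 27.3%, is near the 21.5% of all genes tested. The adaptor SHC1 fell 1.20-fold, from 300.0 ± 2.32 to 249.6 ± 1.16 CPM (edgeR adjusted p = 0.00573). The kinase ARAF rose 1.36-fold, from 96.8 ± 2.96 to 132 ± 5.74 CPM (edgeR adjusted p = 0.00206), and the scaffold KSR1 rose 1.53-fold (edgeR adjusted p = 0.0130). The call on SHC1 was lost without KD replicate 1 (edgeR adjusted p = 0.0584) or KD replicate 2 (0.0527), within 1e-06 to 0.0584, and that on KSR1 without KD replicate 1 (0.0850) or parent replicate 2 (0.0540), within 0.000673 to 0.0850. The 6 calls became 2 without KD replicate 1 and 3 without KD replicate 2 or parent replicate 2. Transcript levels do not show the phosphorylation by which this cascade signals.

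**Figure D3:**
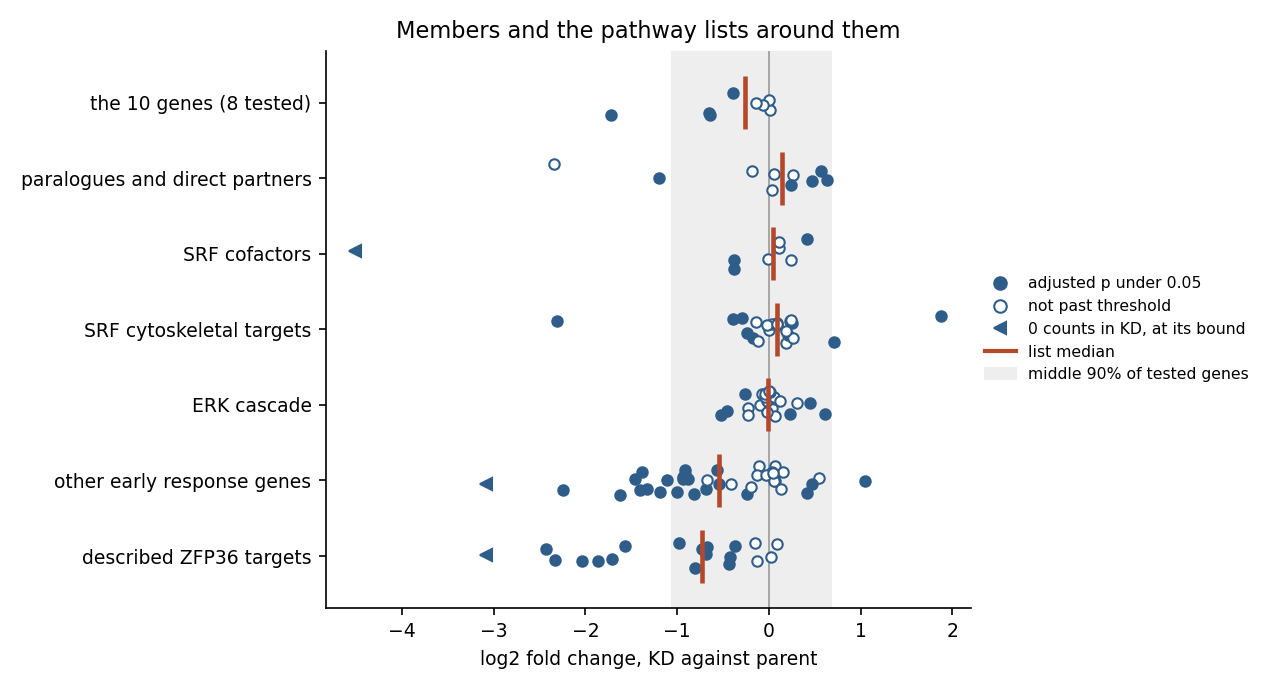
Log2 fold change of KD against parent for the 8 tested genes and for the tested genes of the 6 lists, with a point per gene (filled where the edgeR adjusted p is under 0.05, a triangle at its bound where both KD libraries are at 0), red bars at medians and a band between the 5% and 95% quantiles of all tested genes. The medians of the early response genes (-0.55) and described ZFP36 targets (-0.72) lie below 0, and those of the ERK cascade and of the SRF lists within 0.1 of it.

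No motif searched was found in the windows of all these genes. RefSeq windows were found for 8 of the 10 genes, 12 windows in all. IER3 and EGR3 had no window and were not searched. CArG boxes occurred in EGR1, EGR2 and SRF. The ETS-type core CCGGAAG (10.3% of all windows) occurred in IER2, starting 27 bases before its start on the opposite strand. Only this exact spelling was searched, so ETS-type sites spelled otherwise, in EGR1 or SRF too, were not counted. The CRE TGACGTCA (1.85% of all windows) and the AP-1 site TGANTCA (7.71%) were found in no window of these genes, which says only that these letters are not there. Neither window of NR4A1 and not that of IER5 held any motif searched. Both strands were read, a palindrome counted once, and no match of one motif overlapped another.

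**Figure D4:**
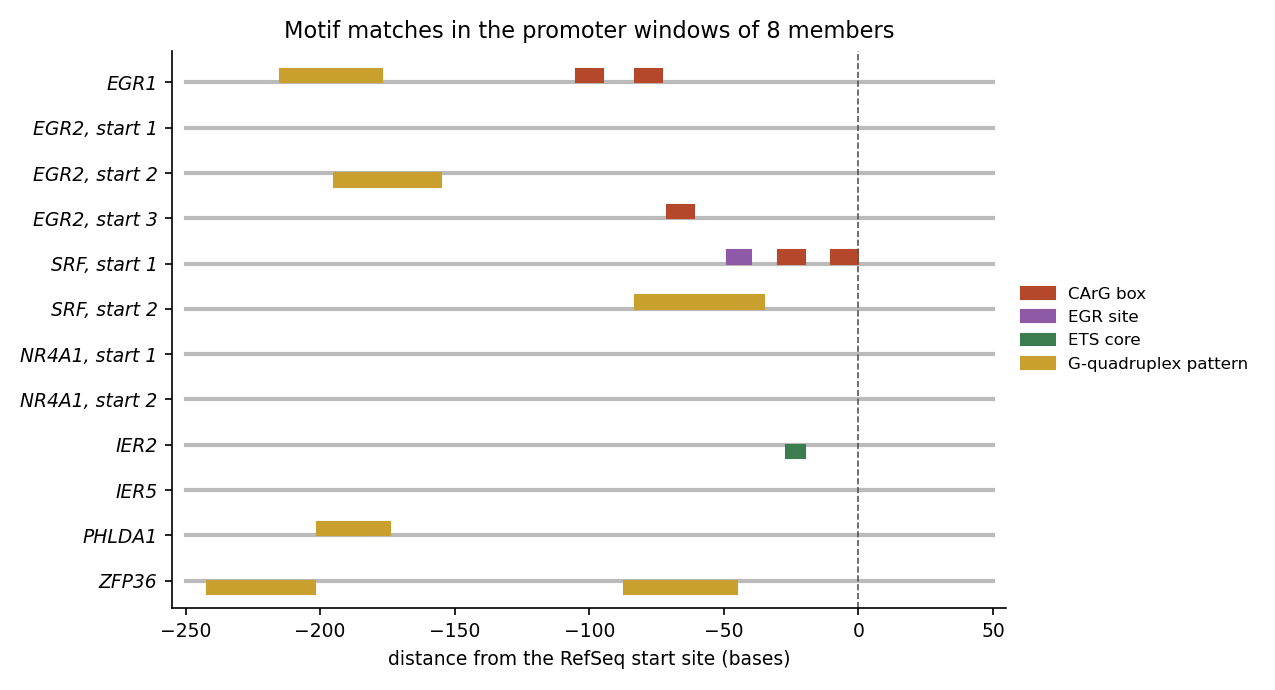
Motif matches by distance from the RefSeq start site, in bases, in the 12 promoter windows of 8 genes, with a line for each start, boxes above it on the gene's strand and boxes below it on the opposite strand. EGR1 and the first start of SRF hold a pair of CArG boxes each, and ZFP36 a pair of G-quadruplex patterns.

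PHLDA1 was called under all 11 alternatives, EGR1 and IER3 under 10 each and NR4A1 under 5, and IER2, IER5, ZFP36 and SRF under none. The fold change of EGR1 moved most, from -2.06 without KD replicate 1 to -1.44 without parent replicate 1.

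**Figure D5:**
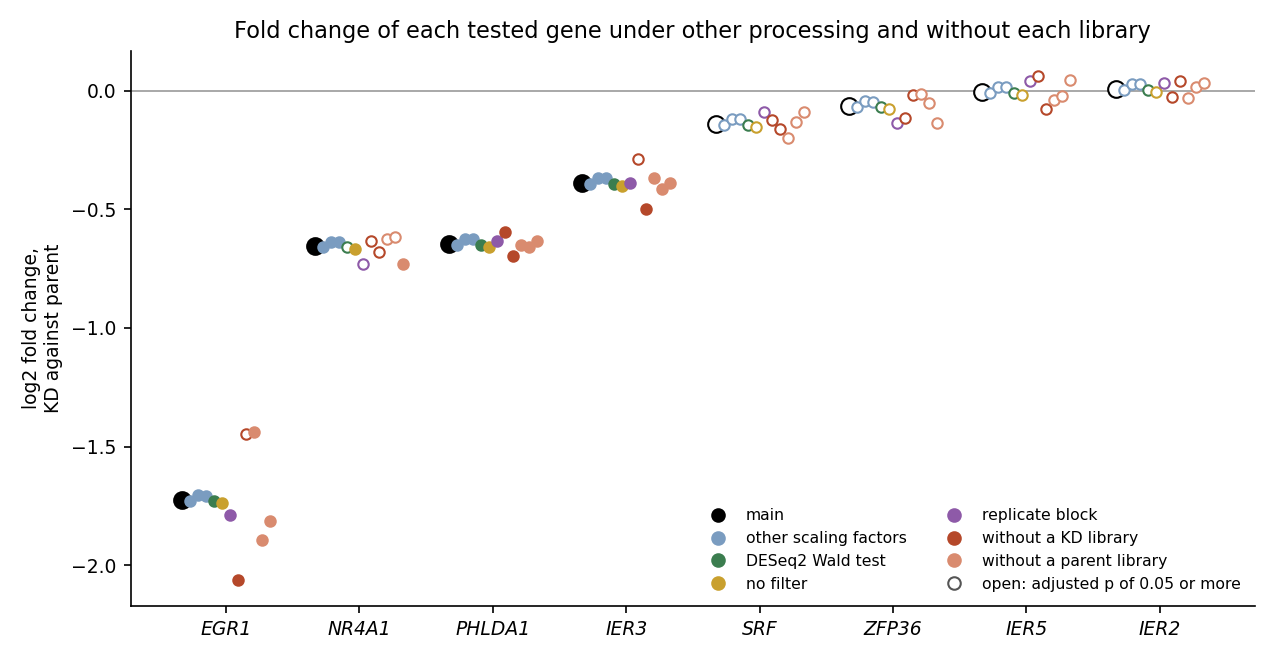
Log2 fold change of KD against parent for each tested gene, as reported (black) and under 11 alternatives, with open points where the adjusted p was 0.05 or more. EGR1 stays between -2.06 and -1.44, and IER5 and IER2 lie on both sides of 0.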

How the data were processed

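MDA-MB-231 RNA-seq libraries, 2 labelled KD and 3 labelled parent, were compared, with groups and replicate numbers taken from the sample titles. The authors deposited expected counts, in whole numbers, per gene and per transcript, and the totals of both tables were equal in each library. STAR, DESeq2 and the build hg19 stand, without versions, in the submitters' processing notes. The sources used here do not give the counter, the annotation or the strand setting. The planned count test was kept, since the counts were whole and needed no rounding. The authors' deposited comparison holds, per the file headers, a mean signal of scaled counts, log2 fold changes with standard errors, a test score and p-values. The sign of its fold changes was read from APEX1.

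Gene counts were filtered with filterByExpr (minimum count 10, minimum total 15), scaled with TMM and tested with edgeR 4.0.16 quasi-likelihood (R 4.3.3, group as the sole term, 3 residual degrees of freedom), with Benjamini-Hochberg adjustment over all 16198 genes and a threshold of 0.05. A standard error is the log2 fold change divided by the root of F, and 95% intervals use the test's degrees of freedom. The code was tested on simulated counts with 200 changed genes. It recovered 42% of 1.5-fold and 82% of 2-fold changes, and 8.33% of its calls fell on unchanged genes. The changed genes were drawn from those above a minimum mean level. They were a smaller share of the 15903 genes run than the share called in the data. These rates are therefore not the power of the comparison reported here. Alternatives were DESeq2 1.42.0 (test and size factors), library totals, upper-quartile factors, no filter, a replicate block and leaving out each library. Promoters and their coordinates come from RefSeq (GRCh38.p14), not the files' build.

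The 10 genes, the 6 pathway lists and the motifs were chosen with earlier results of these data known. The rule for genes to name takes APEX1, the 10 genes, up to 4 called genes of smallest adjusted p in each list, and the tested paralogues, partners and SRF cofactors. Line markers follow a fixed list. ACTB, FOS, IL6, CXCL2 and the untested paralogues were named after their values were seen. Some genes of the lists are not reported here by name.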

Additional observations from a re-analysis of the deposited data

How the results depend on the processing

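Of 47 genes refitted under the 11 alternatives (APEX1, the 8 tested genes and the list genes open to naming), 39 kept their direction, among them all 30 called. The other 8, none of them called, took both signs: IER2, IER5, NAB2, RXRB, SCAI, ACTB, IL6 and CXCL2. DESeq2 size factors, library totals alone and upper-quartile factors gave 3481, 3540 and 3533 genes called, against 3485, with medians over all genes of -0.00409, 0.0196 and 0.0188 on the log2 scale. The DESeq2 test called 3089 and the fit with no filter on low counts 2762. Leaving out 1 library gave 1823 to 3383 genes called, with 1270 to 1970 lower and 553 to 1413 higher. Of the 10 genes, 2 to 4 were then called, all lower. In the lists the counts ran from 4 to 7 for paralogues and partners, 2 to 4 for SRF cofactors, 4 to 7 for cytoskeletal targets, 2 to 6 for the ERK cascade, 17 to 23 for early response genes and 14 to 15 for described ZFP36 targets. A fit with the replicate number as a block called 3940 genes and 3 of the 10, without NR4A1 (edgeR adjusted p = 0.0511), and with calls on ZFP36L1 and MKL2 (0.0252 and 0.0324). With the block the SE of EGR1 was 0.149, against 0.318 without it. That of NR4A1 was 0.206, against 0.168. Same-numbered libraries deviated from their group means with r = 0.0868 for number 1 and -0.0180 for number 2, across genes. With 2 KD libraries the KD deviations are mirror images of each other. These values therefore cannot tell whether same-numbered libraries share more than a number. With the window cut to the bases before the start, the motif counts did not change. EGR2 and EGR3 had too few counts to test at this depth.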
